A study of Mus musculus with 58 samples.

Results

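The genes described here are 10 target genes of the tumour suppressor p53: Cdkn1a, Btg2, Ccng1, Plk2, Sesn1, Mdm2, Trp53inp1, Pmaip1, Bbc3 and Bax. They were chosen by symbol as textbook p53 targets, with earlier results of these data known. All 10 were found among the 24077 genes of the count table. Their RNA was followed through 3 mouse stages, the fully grown oocyte (FGO), the morula and the extraembryonic ectoderm (ExE), which is trophoblast tissue of the implanted embryo. FGO of strain B6.129 gave 2 libraries labelled as Pcgf1/6 double knockout (KO) and 2 labelled as wild type (CTR). Morulae of the cross B6.129 x PWK gave 2 libraries of the double maternal knockout (matKO) and 2 CTR libraries. ExE of the same cross gave 4 matKO and 2 CTR libraries. Pcgf1 and Pcgf6 encode subunits of variant Polycomb repressive complex 1, which ubiquitinates histone H2A. The alleles, the Cre driver, the ages of the animals and the number of cells or embryos in a library were not stated in the labels. In matKO embryos the label places the deletion in the mother only, and the paternal genome came from PWK. Nothing in the labels says that libraries of 1 group came from separate animals, so p-values measure the spread between these libraries, which may be technical.

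The p53 protein is a transcription factor that DNA damage and other stresses stabilise, and its targets stop the cell cycle, limit oxidative damage or start apoptosis. Mdm2 is both a target and the ubiquitin ligase that degrades p53, which closes a feedback loop. Oocytes of resting follicles rely mainly on the p53 relative TAp63, encoded by Trp63, for death after DNA damage, and Pmaip1 and Bbc3 are known mediators of that death.

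RefSeq promoter windows were available for 8 members, 12 windows in all, each running from 250 bases before to 50 bases after an annotated start on GRCm38.p6 (mm10). The first 250 bases of 4 windows are printed here because Cdkn1a and Sesn1 had the largest called rises in KO oocytes, Plk2 was called as well, and Mdm2, with the same kind of motif as Cdkn1a, was not called. Capitals mark matches to the p53 response-element decamer, searched on both strands. The Cdkn1a window is chr17:29090729-29090978 (plus strand), just upstream of the gene at 29090979 to 29100722. The Sesn1 window is chr10:41887189-41887438 (plus strand), upstream of the second annotated start, inside the gene at 41810574 to 41908436. The Mdm2 window is chr10:117710759-117711008 (minus strand), next to the gene at 117688875 to 117710758. The Plk2 window is chr13:110394794-110395043 (plus strand), next to the gene at 110395044 to 110400844.
Cdkn1a: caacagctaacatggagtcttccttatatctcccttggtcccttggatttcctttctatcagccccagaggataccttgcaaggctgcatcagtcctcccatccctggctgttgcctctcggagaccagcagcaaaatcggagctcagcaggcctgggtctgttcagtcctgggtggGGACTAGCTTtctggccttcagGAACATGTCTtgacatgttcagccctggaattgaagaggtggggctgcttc
Sesn1: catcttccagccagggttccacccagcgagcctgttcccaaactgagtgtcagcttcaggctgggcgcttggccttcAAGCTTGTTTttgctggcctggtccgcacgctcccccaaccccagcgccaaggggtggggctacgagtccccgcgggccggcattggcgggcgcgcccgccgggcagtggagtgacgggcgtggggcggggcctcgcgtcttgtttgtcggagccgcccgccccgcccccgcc
Mdm2: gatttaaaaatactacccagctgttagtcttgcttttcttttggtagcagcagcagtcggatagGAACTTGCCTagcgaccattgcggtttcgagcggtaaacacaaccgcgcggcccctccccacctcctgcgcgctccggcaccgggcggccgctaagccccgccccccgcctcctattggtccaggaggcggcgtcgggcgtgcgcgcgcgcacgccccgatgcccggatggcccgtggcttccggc
Plk2: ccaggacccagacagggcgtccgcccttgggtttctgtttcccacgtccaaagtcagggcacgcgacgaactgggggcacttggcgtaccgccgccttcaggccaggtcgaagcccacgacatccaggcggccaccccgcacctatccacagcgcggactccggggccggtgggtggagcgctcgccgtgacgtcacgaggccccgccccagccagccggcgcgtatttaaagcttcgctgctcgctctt
The Cdkn1a stretch held 2 decamers, those of Sesn1 and Mdm2 held 1 each, and that of Plk2 held 0. The other window of Cdkn1a, the other window of Sesn1 and the window of Btg2, which was called too, held 0 each. The windows of Ccng1 and Bax, which like Mdm2 were not called, held 1 each. Of the 12 member windows, 5 held the decamer, against 7.49% of all 21471 windows of the same length. Among 47 other p53 targets with a window, 12 of 68 windows held it. These genes were listed as p53 targets, so this share is a description, and the best-known p53 element of Mdm2 lies outside its window. An E-box (CACGTG) stood in 2 member windows, an E2F-type motif (TTCCCGC) in 1 and a TATA box (TATAAA) in 0, against 7.98%, 5.93% and 12.2% of all windows. The first Cdkn1a window held 2 CG dinucleotides and its second window 23. Btg2 held 32, Plk2 31 and Mdm2 35, against a median of 13 and an upper quartile of 24 over all windows.

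Library totals ranged from 19805264 to 26364085 counts for FGO, from 1299715 to 1685510 for morulae and from 3397585 to 4361832 for ExE. Morula and ExE counts are reads assigned to the maternal or paternal allele, summed here, so their levels are not strictly comparable with FGO. Pcgf1 had 34.9 and 22.8 CPM, the gene's reads scaled by the library total, in KO oocytes, against 1406 and 1100 CPM in CTR oocytes. Pcgf6 had 177 and 220 CPM in KO oocytes, against 396 and 429 CPM in CTR oocytes. In ExE the maternal share of Pcgf6 reads was 26.0% to 43.9% in matKO and 58.1% to 65.6% in CTR. Pcgf1 had 4 and 4 reads in matKO morulae, all maternal, and 1 paternal read and 0 reads in CTR morulae. With at most 1 Pcgf1 read in any ExE library, the Pcgf1 deletion could not be checked in embryos. Markers fitted the labels, with oocyte markers summing to 20260 and 25680 CPM in KO oocytes and to 25530 and 26140 CPM in CTR oocytes, although Pou5f1 was at 0 in morulae, where only allele-assigned reads are counted. ExE matKO replicate 3 stood apart: 35.8% of its reads were maternal, with 31.5% to 40.1% on each chromosome, against 51.5% to 52.7% in the other ExE libraries. What sets this library apart was not tested.

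The first comparison asks whether p53 targets differ between KO and CTR oocytes. In KO oocytes 5 of the 9 members tested rose at an adjusted p under 0.05 and 0 fell, where 5.35% of all 13459 tested genes rose and 1.87% fell. They were Cdkn1a, Btg2, Plk2, Sesn1 and Trp53inp1, at 1.58-fold to 4.40-fold of CTR. The median log2 fold change of the 9 tested members was 1.36, against 0.00 over all tested genes. As the members were chosen with earlier results of these data known, these shares and medians are a description. The 3 apoptosis genes Pmaip1, Bbc3 and Bax were not called, nor were Mdm2 and Ccng1. All tests of expression used edgeR's quasi-likelihood test with Benjamini-Hochberg adjustment over all tested genes. Of the 9 tested members, 8 passed the low-count filter in both groups, and Pmaip1 exceeded its cutoff of 0.419 CPM in 1 of 2 CTR libraries.

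**Figure D1:**
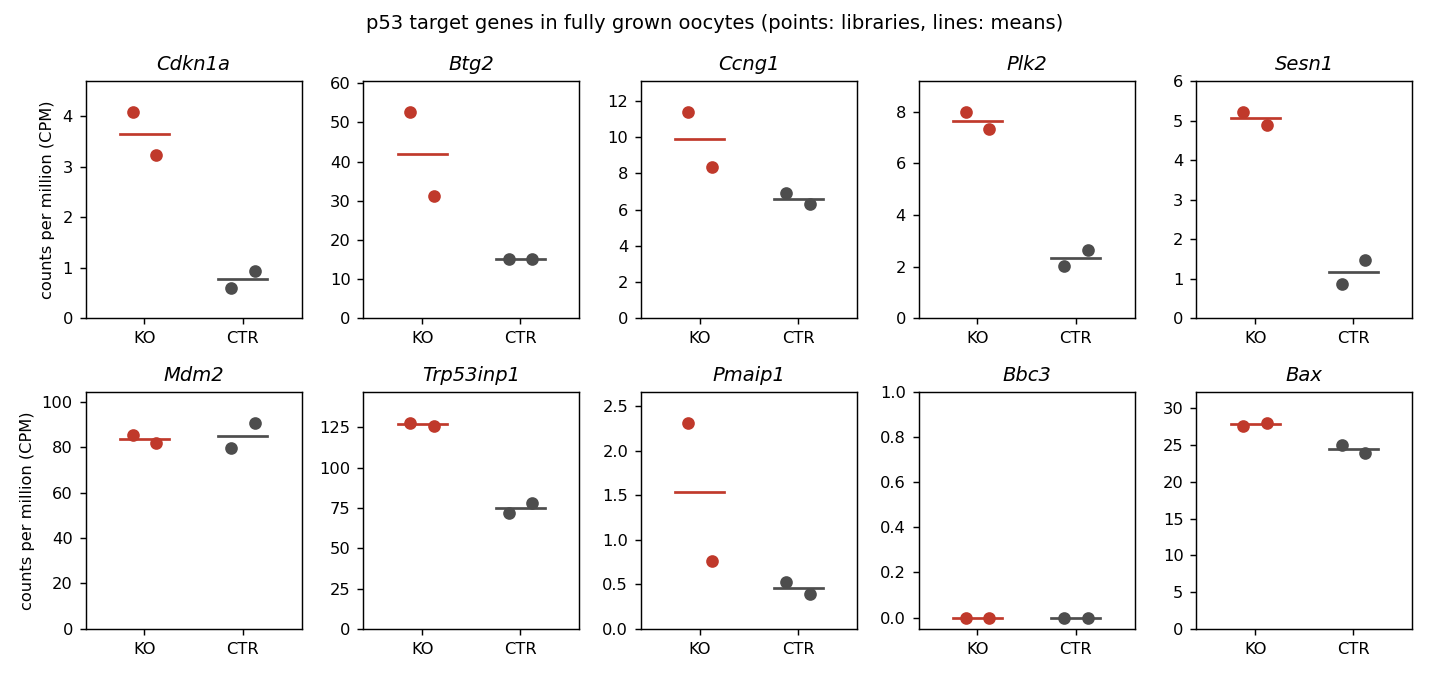
CPM (vertical axis, from 0) of the 10 members in each FGO library, KO left and CTR right; points are libraries and lines are means of 2 libraries. Cdkn1a, Btg2, Plk2, Sesn1 and Trp53inp1 lie apart between the groups, Mdm2 overlaps, and Bbc3 is at 0 in all 4 libraries.

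Among the genes that restrain the cell cycle, Cdkn1a encodes p21, an inhibitor of cyclin-dependent kinases. It had 4.09 and 3.23 CPM in KO oocytes, against 0.607 and 0.933 CPM in CTR oocytes. Both KO libraries lay above both CTR libraries, though the counts are low, 154 reads in the KO group and 40 in the CTR group. The log2 fold change was 2.14 ± 0.40 (SE; adjusted p = 0.0162, edgeR). Btg2, an antiproliferative cofactor of mRNA deadenylation, had 52.7 and 31.3 CPM in KO oocytes, against 15.0 and 15.0 CPM in CTR oocytes. The KO libraries differed from each other by more than the CTR libraries did, without overlap between the groups. Its log2 fold change was 1.36 ± 0.22 (SE; adjusted p = 0.00915, edgeR). Plk2, a polo-like kinase induced by stress, had 8.0 and 7.32 CPM in KO oocytes, against 2.01 and 2.64 CPM in CTR oocytes. The groups were well separated, at a log2 fold change of 1.62 ± 0.30 (SE; adjusted p = 0.0144, edgeR). Ccng1, which encodes cyclin G1, a recruiter of protein phosphatase to Mdm2, had 11.4 and 8.38 CPM in KO oocytes, against 6.90 and 6.30 CPM in CTR oocytes. Its libraries did not overlap, but the log2 fold change of 0.47 ± 0.24 (SE) missed the threshold (adjusted p = 0.309, edgeR).

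Sesn1 encodes sestrin 1, which protects against oxidative stress and restrains mTORC1. It had 5.22 and 4.90 CPM in KO oocytes, against 0.872 and 1.48 CPM in CTR oocytes. The groups did not overlap, and the log2 fold change was 2.00 ± 0.38 (SE; adjusted p = 0.0157, edgeR). Trp53inp1, a stress-induced protein that promotes p53 activity, had 128 and 126 CPM in KO oocytes, against 72.0 and 78.3 CPM in CTR oocytes. It rose least of the 5 called members, with a log2 fold change of 0.66 ± 0.15 (SE; adjusted p = 0.0315, edgeR). Mdm2, the feedback ubiquitin ligase, had 85.4 and 81.8 CPM in KO oocytes, against 79.5 and 90.8 CPM in CTR oocytes. Its KO values lay inside the CTR range (log2 fold change -0.12 ± 0.15, SE; adjusted p = 0.704, edgeR).

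Of the apoptosis genes, Pmaip1 encodes the BH3-only protein Noxa. It had 2.32 and 0.757 CPM in KO oocytes, against 0.531 and 0.389 CPM in CTR oocytes. The first KO library carried most of this difference, at a log2 fold change of 1.6 ± 0.60 (SE; adjusted p = 0.169, edgeR). Bax, which permeabilises the outer mitochondrial membrane, had 27.6 and 28.1 CPM in KO oocytes, against 25 and 24.0 CPM in CTR oocytes. Its groups overlapped once library composition was scaled, at a log2 fold change of 0.09 ± 0.18 (SE; adjusted p = 0.832, edgeR). Bbc3, which encodes the BH3-only protein Puma, had 0 counts in all 4 FGO libraries. At this depth 3 counts correspond to 0.114 to 0.151 CPM, so lower levels were not detectable. By plain CPM, KO lay above CTR without overlap for 8 of the 9 tested members, where 32.1% of all tested genes did so.

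The calls rest on 2 libraries a group, and a fit without 1 of them assumes that the lone library of its group varies like the other group. Without CTR replicate 1, Btg2 alone kept its call, while Cdkn1a (adjusted p = 0.0591), Sesn1 (0.0539), Plk2 (0.0617) and Trp53inp1 (0.261) lost it. Trp53inp1 also lost it without CTR replicate 2 (adjusted p = 0.112, edgeR), and a spread shared over all stages left Cdkn1a and Sesn1.

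Summed markers of some other cells were also higher in KO oocytes. The 16 granulosa and cumulus markers summed to 517 and 359 CPM in KO oocytes, against 338 and 317 CPM in CTR oocytes. Of these, 15 were detected in KO and all 16 in CTR, with Amh at 0 in KO. Of 12 tested, 6 had a positive log2 fold change, with a median of 0.06, and Nr2f2 was the 1 called, while the abundant Nr5a2 had 1.18 (adjusted p = 0.277, edgeR). The 8 ectoplacental cone and giant cell markers summed to 76.7 and 58.6 CPM in KO oocytes, against 18.8 and 10.5 CPM in CTR oocytes, with 3 and 4 of them detected and Prl3d1, Prl2c2, Hand1 and Ctsq at 0 in both. Of 3 tested, Ascl2 and Plac1 rose, where 5.35% of all tested genes did so. Ascl2 had 0.341 and 0.1555 CPM in CTR oocytes, below the low-count cutoff, so it was tested only through its KO libraries. In KO oocytes Ascl2 had 10.2 and 4.80 CPM and Tpbpa 0.818 and 3.99 CPM. Plac1, the only other marker of this list detected there, made up most of the sum. By plain CPM, KO replicate 1 had the highest sum of the granulosa and ectoplacental cone lists and the higher value of 8 members. The TMM factor, which scales for library composition, was 1.11 for KO replicate 1 and 0.963 for KO replicate 2. Scaling thus lowers replicate 1 relative to replicate 2. It reverses the order for Plk2, Sesn1, Mdm2 and Trp53inp1, while Cdkn1a, Btg2, Ccng1 and Pmaip1 stay higher in replicate 1. The part of these markers in the members' values was not tested. In such bulk samples, fewer cells of a type and less RNA per cell cannot be told apart.

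The called genes among the other p53 targets were all higher in KO oocytes. Of 58 other p53 targets, 39 were tested in oocytes, 5 rose and 0 fell, where 5.35% of all tested genes rose and 1.87% fell. Of the 39, 33 had a positive log2 fold change, and the median was 0.52 against 0.00 over all tested genes. Plk3, a polo-like kinase related to Plk2, had 21.2 and 9.79 CPM in KO oocytes, against 3.72 and 2.41 CPM in CTR oocytes (log2 fold change 2.21 ± 0.37, SE; adjusted p = 0.0117, edgeR). Apaf1, the scaffold of the apoptosome, had 24.7 and 18.8 CPM in KO oocytes, against 6.75 and 9.41 CPM in CTR oocytes (adjusted p = 0.0125, edgeR). Gadd45a, a growth arrest and DNA damage gene, had 4.45 and 4.59 CPM in KO oocytes, against 1.21 and 1.17 CPM in CTR oocytes (adjusted p = 0.0157, edgeR). The thiamine transporter gene Slc19a2 and the phosphatase gene Ppm1d, which switches off p53 signalling, were called as well. Their log2 fold changes were 3.33 ± 0.62 and 0.98 ± 0.24 (SE). Slc19a2 had 0.190 and 0.233 CPM in CTR oocytes, below the low-count cutoff of 0.419 CPM. It was thus tested only through its KO libraries, and its call is a description.

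**Figure D2:**
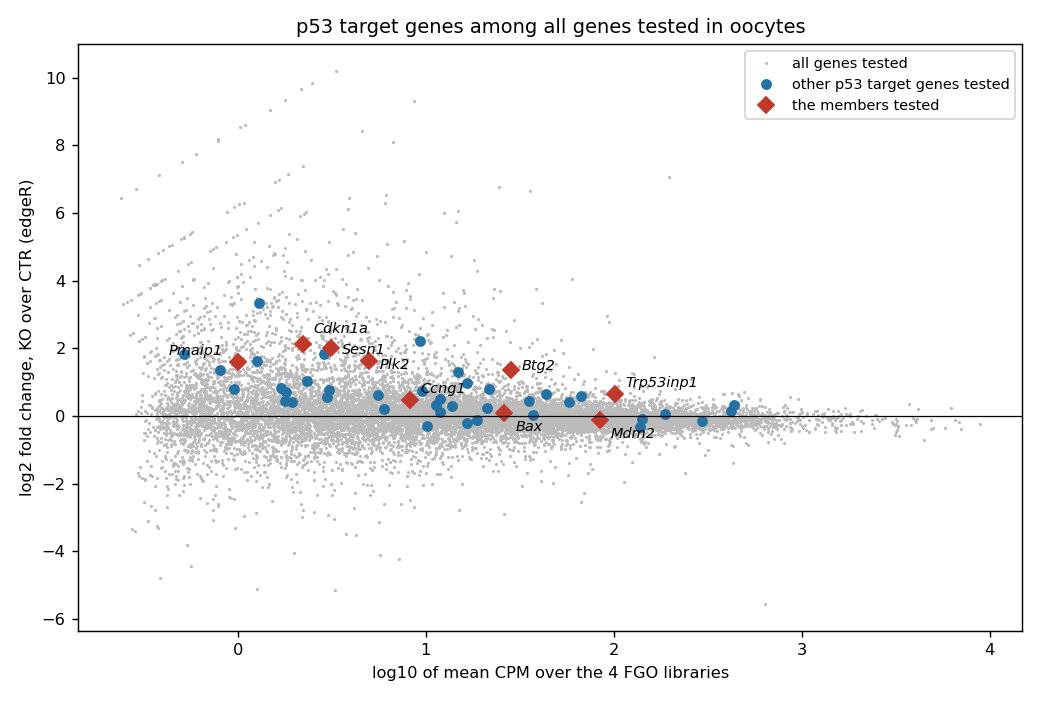
Log2 fold change of KO over CTR oocytes (vertical axis) against log10 of mean CPM over the 4 FGO libraries (horizontal axis) for all 13459 genes tested, with the 9 tested members as diamonds and 39 other p53 targets as circles. Cdkn1a, Sesn1, Plk2, Btg2 and the uncalled Pmaip1 lie above 1 on the vertical axis, while Mdm2 and Bax lie near 0.

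Paralogs of the members gave 4 rises and 0 falls of 26 tested, where 5.35% of all tested genes rose and 1.87% fell. Their median log2 fold change was 0.06. Those called were Bid (log2 fold change 3.84 ± 0.32, SE), a BH3-only gene like Pmaip1, and its relative Bcl2l11 (1.55 ± 0.33). Called as well were the survival gene Bcl2 (2.88 ± 0.48) and Plk3, which is counted among the other p53 targets too. Bcl2 lay below the low-count cutoff in CTR replicate 1, at 0.2655 CPM. Of 23 tested genes of the p53 family and its regulators, 1 rose, near the share over all tested genes, 0 fell, and the median was -0.08. The gene that rose was Cdkn2a, whose Arf product blocks Mdm2. It had 37 counts in the KO group and 1 in the CTR group (adjusted p = 0.0164, edgeR). It was also the 1 called gene among 7 other CDK inhibitors. Both CTR libraries lay below the low-count cutoff of 0.419 CPM. Cdkn2a was thus tested only through its KO libraries, and its call is a description. Mdm4, the abundant paralog of Mdm2, had 3348 and 3720 CPM in KO oocytes, against 5176 and 5599 CPM in CTR oocytes. It was not called (log2 fold change -0.70 ± 0.20, SE; adjusted p = 0.0759, edgeR). DESeq2's Wald test called 2 up and 1 down of the 23. Named after their values were seen, Trp53 had 28.8 and 22.5 CPM in KO oocytes, against 24.8 and 20.6 CPM in CTR oocytes. Trp63 had 24.8 and 20.7 CPM in KO oocytes, against 27.4 and 22.3 CPM in CTR oocytes. Trp73 had 18.5 and 11.2 CPM in KO oocytes, against 11.9 and 18.7 CPM in CTR oocytes. Their groups overlapped, and log2 fold changes were 0.07 ± 0.19, -0.23 ± 0.19 and -0.16 ± 0.28 (SE), none of them called. In embryos Trp53 was not called either, with log2 fold changes of 0.08 ± 0.18 in morulae and 0.76 ± 0.23 in ExE (SE; adjusted p = 0.833 and 0.226, edgeR). In ExE it had 143, 114, 86.4 and 120 CPM in matKO, against 83.7 and 50.9 CPM in CTR.

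Stress genes outside the pathway were counted beside the members. Over all tested genes, 5.35% rose and 1.87% fell in KO oocytes. Of 18 tested immediate early and dissociation stress genes, 5 rose (Gadd45b, Jund, Zfp36, Hspb1 and Ier2), 0 fell, and the median log2 fold change was 1.09. Gadd45b, a relative of Gadd45a, led them with a log2 fold change of 2.52 ± 0.34 (SE; adjusted p = 0.00441, edgeR). Of 17 tested oxidative and integrated stress response genes, 4 rose (Vldlr, Gclc, Hmox1 and Asns), 0 fell, and the median was 0.35. Of 21 cell division genes, Ccne1, which encodes cyclin E1, rose (log2 fold change 1.38 ± 0.31, SE), 0 fell, and the median was -0.10. With 1 rise, this list stood near the share of all tested genes that rose. The part of these lists in the members' values was not tested.

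In morulae the question is whether maternal knockout is followed by a difference in the same genes. Of 9 members tested, 0 rose and 0 fell in matKO morulae, where 0.132% of all 9063 tested genes were called in either direction. The median log2 fold change was 0.14, against -0.02 over all tested genes, and 6 of 9 were positive. At an unadjusted p under 0.05, 1 of 9 members (Trp53inp1) passed in edgeR, against 19.8% of all tested genes, and DESeq2's Wald test called 0 members. Cdkn1a had 273 and 234 CPM in matKO morulae, against 233 and 172 CPM in CTR morulae. The lower matKO value lay just above the higher CTR value, and the log2 fold change was 0.36 ± 0.17 (SE; adjusted p = 0.287, edgeR). Trp53inp1 had 463 and 412 CPM in matKO morulae, against 376 and 250 CPM in CTR morulae. It had the smallest p of the members, with no overlap and a log2 fold change of 0.52 ± 0.18 (SE; adjusted p = 0.186, edgeR). These 2 members lay higher in matKO without overlap, where 23.5% of all tested genes did so, and the other 7 tested members overlapped.

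The other members overlapped between matKO and CTR morulae. Sesn1 had 66.9 and 61.6 CPM in matKO morulae, against 103 and 58.6 CPM in CTR morulae. Plk2 had 166 and 45.3 CPM in matKO morulae, against 96.1 and 47.3 CPM in CTR morulae, and Btg2 had 121 and 55.6 CPM in matKO, against 132 and 31.5 CPM in CTR. In each case the replicates of at least 1 group lay farther apart than the group means, with log2 fold changes of -0.29 ± 0.29 (Sesn1), 0.60 ± 0.56 (Plk2) and 0.15 ± 0.61 (Btg2). Ccng1, Mdm2, Pmaip1 and Bax had log2 fold changes from -0.02 to 0.14. Bbc3 was below the low-count filter, with 9 and 2 reads in matKO morulae and 10 and 2 in CTR morulae. Of 45 other p53 targets tested, 0 were called, with a median log2 fold change of 0.02, and the closest to the threshold was Sulf2 (-1.64 ± 0.28, SE; adjusted p = 0.0659, edgeR). Of the 45, 5 passed an unadjusted p under 0.05 in edgeR, against 19.8% of all tested genes, and DESeq2's Wald test called 1 up and 1 down.

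**Figure D3:**
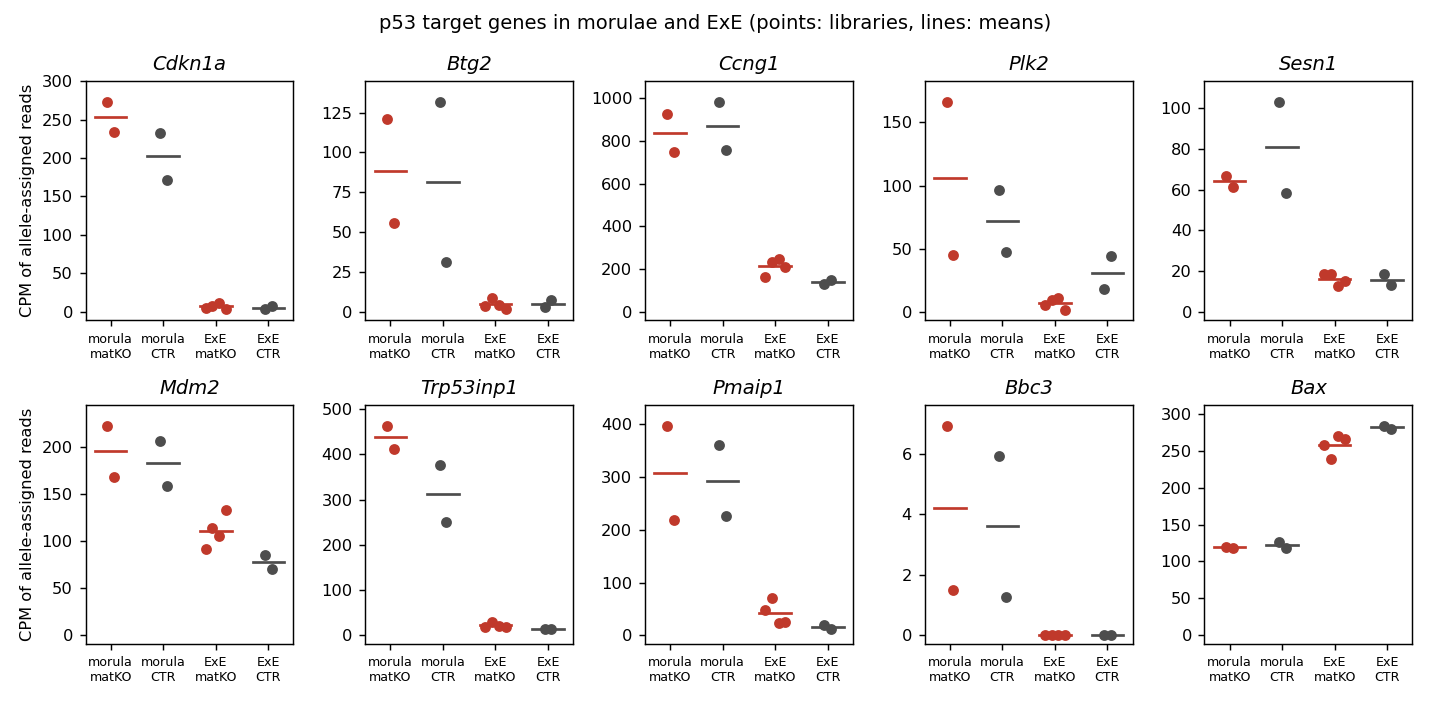
CPM of allele-assigned reads (vertical axis) for the 10 members in morula and ExE libraries, matKO left of CTR at each stage; points are libraries and lines are group means. Cdkn1a, Ccng1, Trp53inp1 and Pmaip1 are lower in ExE than in morulae of both genotypes, and Plk2 in ExE lies lower in the 4 matKO libraries.

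In ExE the same question was asked after implantation, with 4 matKO and 2 CTR libraries. No member was called among 9 tested, and 0 of all 8386 tested genes were called, a share of 0%. At an unadjusted p under 0.05, 5 of the 9 members and 13.8% of all tested genes passed in edgeR, while DESeq2's Wald test called 214 genes, Plk2 and Pmaip1 among them. The members' median log2 fold change was 0.35, against 0.00 over all tested genes. By CPM, 6 members had no overlap between the groups. Ccng1, Mdm2, Trp53inp1 and Pmaip1 were higher in matKO, as were 12.5% of all tested genes without overlap, and Plk2 and Bax were lower, as were 11.3%.

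Plk2 had 4.89, 9.49, 11.1 and 1.18 CPM in matKO ExE, against 17.8 and 44.2 CPM in CTR ExE. Every matKO library lay below both CTR libraries, opposite in direction to KO oocytes, and the CTR libraries themselves differed more than 2-fold. The log2 fold change was -2.25 ± 0.66 (SE; adjusted p = 0.247, edgeR), and without matKO replicate 3 it was -2.59 (adjusted p = 0.140, edgeR). Ectoplacental cone and giant cell markers, 8 genes, summed to 84.8, 652, 1255 and 394 CPM in matKO ExE, against 1224 and 2513 CPM in CTR ExE. Of these, 4 were detected in both groups, with Prl3d1, Prl2c2, Gcm1 and Ctsq at 0. Trophectoderm markers, 7 of 8 detected with Elf3 at 0, summed to 2571 to 5367 CPM in matKO and to 7813 and 8289 CPM in CTR. Their part in the Plk2 values was not tested.

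Pmaip1 had 47.2, 71.2, 23.5 and 25.6 CPM in matKO ExE, against 19.2 and 12.8 CPM in CTR ExE. The lowest matKO library lay just above the higher CTR library, at a log2 fold change of 1.37 ± 0.48 (SE; adjusted p = 0.292, edgeR). Ccng1 had 163, 234, 247 and 209 CPM in matKO ExE, against 129 and 146 CPM in CTR ExE (log2 fold change 0.60 ± 0.18, SE; adjusted p = 0.219, edgeR). Mdm2 had 91.9, 114, 106 and 133 CPM in matKO ExE, against 85.3 and 70.2 CPM in CTR ExE (log2 fold change 0.49 ± 0.18, SE; adjusted p = 0.292, edgeR). Trp53inp1 had 18.6, 30.5, 21.6 and 17.9 CPM in matKO ExE, against 14.2 and 13.8 CPM in CTR ExE. These 4 genes differed in the same direction without reaching the threshold, also without matKO replicate 3 (adjusted p = 0.116 to 0.332, edgeR). Marker sums of several cell types were compared as well, and the epiblast sums overlapped between the groups. The 10 ExE markers summed to 1236 to 1523 CPM in matKO ExE, against 1132 and 1139 CPM in CTR ExE, with 9 detected and Bmp4 at 0 in both. Sox2 and Esrrb are both ExE markers and morula and pluripotency markers here. The 9 visceral endoderm markers summed to 29.6, 23.5, 9.18 and 12.7 CPM in matKO ExE, against 4.27 and 2.29 CPM in CTR ExE, with 7 and 3 of them detected and Apoa1 and Hnf4a at 0 in both. The 9 morula and pluripotency markers summed to 366, 301, 112 and 152 CPM in matKO ExE, against 111 and 55.9 CPM in CTR ExE, with 7 and 6 detected and Pou5f1 and Tdgf1 at 0 in both. The 7 epiblast markers summed to 473 to 758 CPM in matKO ExE, against 533 and 317 CPM in CTR ExE, with 5 and 4 detected and Otx2 and Pou5f1 at 0 in both. Replicates 1 and 2 of matKO had the highest sums of each of these lists and the highest Pmaip1, while Mdm2 was highest in replicate 4 and Ccng1 in replicate 3. The part of these markers in the members' values was not tested.

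Bax had 258, 239, 271 and 266 CPM in matKO ExE, against 284 and 280 CPM in CTR ExE. Its log2 fold change was -0.16 ± 0.12 (SE; adjusted p = 0.574, edgeR). Cdkn1a had 4.64, 7.75, 11.1 and 3.83 CPM in matKO ExE, against 2.84 and 7.57 CPM in CTR ExE, so that the groups overlapped. Without matKO replicate 3, its highest library, the log2 fold change was 0.01, against 0.35 with it. Sesn1 (12.4 to 18.7 CPM in matKO, 13.1 and 18.5 CPM in CTR) and Btg2 (1.47 to 8.49 CPM in matKO, 2.84 and 7.11 CPM in CTR) overlapped as well. Bbc3 had 0 counts in all 6 ExE libraries, where 3 counts correspond to 0.688 to 0.883 CPM. Of 37 other p53 targets tested in ExE, 0 were called, with a median log2 fold change of 0.27, and the smallest p belonged to Psrc1 (1.13 ± 0.21, SE; adjusted p = 0.117, edgeR). Of the 37, 7 passed an unadjusted p under 0.05 in edgeR, against 13.8% of all tested genes, and DESeq2's Wald test called 3, all up.

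**Figure D4:**
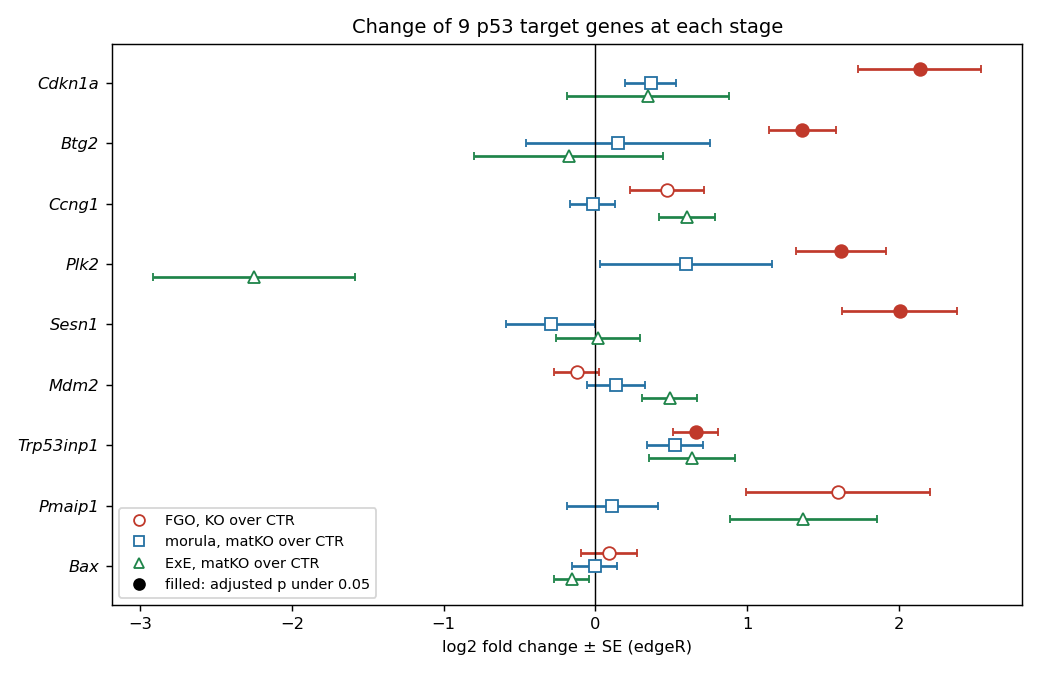
Log2 fold change with its SE (horizontal axis) of the 9 tested members at each stage, KO over CTR in FGO and matKO over CTR in morulae and ExE; filled symbols have an adjusted p under 0.05. All 5 filled symbols belong to FGO, and Plk2 points in opposite directions in FGO and ExE.

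Whether the effect in oocytes differs from that in embryos was tested as the difference of log2 fold changes. FGO libraries enter both differences. The difference FGO minus morula was called for 2 members, Cdkn1a (1.77 ± 0.35, SE; adjusted p = 0.0198, edgeR) and Sesn1 (2.3 ± 0.48, SE; adjusted p = 0.0266, edgeR), where 2.24% of all 14719 tested genes were called in that direction. For Btg2 (1.21 ± 0.78, SE) and Plk2 (1.02 ± 0.72, SE) it was not called, nor for Trp53inp1 (0.14 ± 0.26, SE), which had log2 fold changes of 0.66 in FGO and 0.52 in morulae. Both calls were lost without FGO CTR replicate 1, FGO CTR replicate 2, FGO KO replicate 1 or morula CTR replicate 1, and Sesn1 also without FGO KO replicate 2 or either matKO morula library. The difference FGO minus ExE was called for Plk2 (3.76 ± 0.85, SE; adjusted p = 0.0467, edgeR), where 1.66% of all 12430 tested genes were called in that direction. Sesn1 came next (1.88 ± 0.45, SE; adjusted p = 0.0507, edgeR), and Cdkn1a (1.68 ± 0.75, SE; adjusted p = 0.330, edgeR) and Btg2 (1.43 ± 0.70, SE; adjusted p = 0.385, edgeR) did not pass. The Plk2 call was lost without any 1 of the 4 FGO libraries, ExE CTR replicate 2, or ExE matKO replicate 1 or 2, and with the ExE paternal reads alone. Mdm2 had the largest difference in the other direction, -0.72 ± 0.25 (SE; adjusted p = 0.198, edgeR). Among the other p53 targets, Sulf2, Slc19a2 and Plk3 were called above 0 in FGO minus morula, with 55 tested. In FGO minus ExE, with 42 tested, Slc19a2 was called above 0 and Psrc1 below it.

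Levels by stage placed most members highest in morulae, with the limit that FGO counts are whole-gene counts. Cdkn1a averaged 3.66 ± 0.61 CPM in KO and 0.770 ± 0.23 CPM in CTR oocytes (SD, n = 2 each). It averaged 253 ± 27.9 CPM in matKO and 202 ± 42.9 CPM in CTR morulae (SD, n = 2 each), and 6.82 ± 3.3 CPM in matKO (SD, n = 4) and 5.21 ± 3.34 CPM in CTR ExE (SD, n = 2). KO oocytes thus stood near the range of ExE and far below either morula group. Ccng1 had the same order of stages, with 9.89 ± 2.14 CPM in KO oocytes, 837 ± 123 CPM in matKO morulae (SD, n = 2 each) and 213 ± 36.8 CPM in matKO ExE (SD, n = 4). Bax was the exception among the members, highest in ExE at 258 ± 14.2 CPM in matKO (SD, n = 4) and 282 ± 3.0 CPM in CTR (SD, n = 2). Across the 14 libraries and 10354 genes with a mean of at least 5 CPM, the genes most like Cdkn1a by Pearson's r of log2(CPM + 1) were Tmppe (0.985), Pex3 (0.985), Rpain (0.985), Slc5a6 (0.985) and Triap1 (0.984). Cdkn1a was high in the 4 morula libraries and low in the other 10, and the libraries of a stage share their counting of reads.

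Reads of both parents were seen for the members in the embryo, and 0 of the 9 with enough reads in morulae and 0 of 8 in ExE shifted between parents with genotype, where 0.0393% of all 7637 and 0.0729% of all 6857 tested genes did. Cdkn1a reads in morulae were 45.4% and 46.4% maternal in matKO and 51.8% and 41.0% maternal in CTR. Btg2 had the largest morula value, 36.3% and 45.3% maternal in matKO, against 61.7% and 44.0% in CTR (log2 shift towards the paternal allele 0.89 ± 0.41, SE; adjusted p = 0.641, edgeR). In ExE, Pmaip1 was 26.4%, 57.5%, 23.0% and 24.1% maternal in matKO, against 23.5% and 25% in CTR. Replicate 2 alone stood apart from the other 5 libraries, and the shift was not called (-0.94 ± 0.75, SE; adjusted p = 0.927, edgeR). Cdkn1a was 52.6%, 54.8%, 9.76% and 23.1% maternal in matKO ExE, against 50% and 42.4% in CTR ExE. In matKO replicate 3 it had 4 maternal of 41 reads, with a 95% exact interval of 2.72% to 23.1%, below the 35.8% of all reads in that library, and the shift was not called (0.40 ± 0.73, SE; adjusted p = 0.976, edgeR). Of the other members, Ccng1, Mdm2 and Bax were also lowest in matKO replicate 3 among the 6 ExE libraries, at 30.3%, 31.1% and 42.9% maternal, as were Plk2 at 34.15% and Pmaip1 at 23.0%. Trp53inp1 was 32.5% maternal there, the lowest of the matKO libraries but above 1 CTR library at 30%. Sesn1 and Btg2 were not lowest there. Sesn1 was 56.5% maternal in replicate 3 and 54.9% in matKO replicate 4. Btg2, which was not tested for a shift in ExE, was 50% maternal in replicate 3 and 32.35% in matKO replicate 2.

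**Figure D5:**
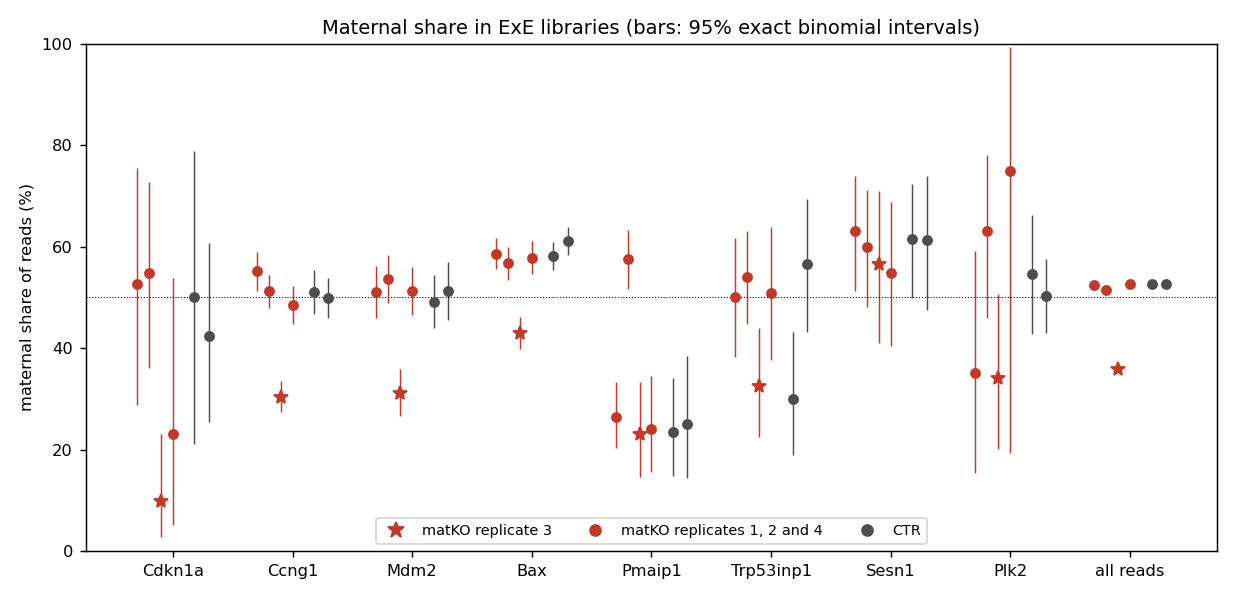
Maternal share of reads (vertical axis, percent) of the 8 members tested and of all reads in each ExE library, matKO left of CTR; bars are 95% exact binomial intervals, which cover counting error only, and stars mark matKO replicate 3. Cdkn1a, Ccng1, Mdm2 and Bax are lower in that library, Sesn1 is not lowest there, and Pmaip1 is higher in matKO replicate 2.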

How the data were processed

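Expression values are raw read counts, deposited as 1 table with 1 column for each FGO library and separate maternal and paternal columns for each morula and ExE library. Both parental counts were added for tests of expression, so reads without an informative variant are missing at those stages. STAR 2.7.3, RSEM 1.3.1 and the build mm10 are named in the submitters' processing notes; the annotation and the allele rule were not stated. The table has 24 columns for 14 libraries, with 0 columns left unmapped. The 4 reciprocal-cross morula samples and 40 CUT&RUN samples were not analysed here.

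Groups within a stage were compared with edgeR 4.0.16 in R 4.3.3 (TMM factors, filterByExpr, robust quasi-likelihood F test, adjusted p under 0.05). CPM values are counts divided by the plain library total. Differences between stages were interaction terms in 1 fit of both stages. The allele test used a term for each library and genes with a mean of at least 20 reads. Each test was first run on simulated counts with planted changes. Intervals of shares are 95% exact Clopper-Pearson intervals, and intervals and floors of 3 counts cover counting error only.

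The members and lists were chosen with earlier results of these data known. Named genes are the 10 members, Pcgf1 and Pcgf6, up to 4 genes of smallest p in each list, and 5 genes most like Cdkn1a; Ppm1d, Ier2, Trp53, Trp63 and Trp73 were added after their values were seen. Alternatives, 76 in number, covered DESeq2 1.42.0, size factors, the filter, a shared spread, the replicate number as a block, single alleles and each replicate left out. Promoters came from RefSeq (GRCm38.p6) by symbol; Trp53inp1 and Pmaip1 had no window. No annotated gene overlaps a member. Figures were drawn with matplotlib 3.10.9.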

Additional observations from a re-analysis of the deposited data

Results flagged for a closer look

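The maternal share of all reads was 35.8% in ExE matKO replicate 3, far from the other 3 matKO libraries. In the same library Mdm2 was 31.1% maternal and Bax 42.9% maternal, each apart from the other matKO libraries. Pmaip1 was 57.5% maternal in ExE matKO replicate 2, against 23.0% to 26.4% in the other matKO libraries. These 4 were the ones set apart among 19 groups of 4 libraries examined, and chance alone sets apart about 1 in 20 such groups.

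The effect differed between stages, by a test of the difference itself, for Cdkn1a (FGO minus morula, log2 1.77), Sesn1 (FGO minus morula, log2 2.3) and Plk2 (FGO minus ExE, log2 3.76). Each of the 3 lost its call when certain single libraries were left out.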

How the results depend on the processing

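The 5 members called in oocytes were called with DESeq2's factors, DESeq2's Wald test, no filter and the replicate block. A spread shared over all stages left 2 (Cdkn1a and Sesn1), and leaving out 1 library gave 1 to 6. Members called in ExE numbered 2 with DESeq2's Wald test (Plk2, adjusted p = 0.00956, and Pmaip1, 0.0381) and 3 with the replicate block on replicates 1 and 2 (Ccng1, Plk2 and Pmaip1), which changed no call of a member in FGO or morulae. For FGO minus morula, members called numbered 0 to 2 without 1 library, and the replicate block added Pmaip1. For FGO minus ExE, they numbered 2 (Plk2 and Sesn1) with DESeq2's factors, DESeq2's Wald test or the replicate block, 0 with ExE paternal reads alone, and 0 to 1 without 1 library; with no filter Sesn1 was called instead of Plk2. Replicate numbers are shared between groups, but nothing says that they pair samples: deviations of same-numbered libraries correlated at 0.29 in FGO, 0.18 in morulae and 0.26 in ExE over 2 numbers each. The causes of these moves were not tested.

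Genes called in FGO numbered 972, with 1630 under no filter, 2021 with the replicate block and 767 to 2029 without 1 library. In morulae the 12 calls became 54 with DESeq2's factors, 208 with its Wald test, 489 with no filter, 166 with the shared spread, 310 with the replicate block, 68 from paternal reads and 7 to 524 without 1 library. In ExE the 0 calls became 214 with DESeq2's Wald test, 112 with no filter, 35 with the shared spread, 878 with the replicate block, 5 from maternal reads and 0 to 6 without 1 library (6 without matKO replicate 3). FGO minus morula went to 675 with DESeq2's Wald test, 791 with no filter, 668 with the replicate block and 124 to 558 without 1 library, against 386. FGO minus ExE went to 511 with DESeq2's Wald test, 723 with the replicate block, 133 from ExE paternal reads and 108 to 333 without 1 library, against 264. The morula allele shift went to 19 at a mean of 5 reads and 0 to 3 without 1 library, against 3, and the ExE allele shift to 4 to 14 without 1 library, against 5. The median log2 difference of all genes in FGO minus morula was 0.07 with TMM, -0.08 with DESeq2's factors and -0.13 with DESeq2's Wald test.

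Members that changed sign were uncalled in the main comparison, and some, such as Btg2 and Plk2, had log2 differences well away from 0. Values are log2. In FGO, Bax ran from -0.035 to 0.20 without 1 library. In morulae, ranges without 1 library were -0.52 to 1.51 (Btg2), -0.18 to 0.17 (Ccng1), -0.63 to 1.26 (Plk2), -0.62 to 0.16 (Sesn1), -0.083 to 0.33 (Mdm2), -0.38 to 0.48 (Pmaip1) and -0.032 to 0.038 (Bax). Bax in morulae was 0.00024 with DESeq2's factors, 0.00033 with its Wald test, 0.011 with the shared spread and 0.093 from paternal reads, and maternal reads gave -0.41 for Btg2 and -0.0023 for Mdm2. In ExE, ranges were -0.22 to 1.27 (Cdkn1a), -0.72 to 0.69 (Btg2) and -0.17 to 0.23 (Sesn1), with 0.27 for Btg2 under the replicate block and -0.0046 for Cdkn1a from maternal reads.

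In FGO minus morula, ranges were -0.11 to 1.89 (Btg2), -0.14 to 0.38 (Trp53inp1) and -0.062 to 0.14 (Bax), DESeq2's factors gave -0.022 for Trp53inp1 and -0.059 for Bax, and its Wald test -0.022 and -0.060. In FGO minus ExE, ranges were -0.17 to 0.12 (Trp53inp1) and -0.77 to 0.65 (Pmaip1), with -0.34 for Pmaip1 under the replicate block and 0.18 for Trp53inp1 from ExE paternal reads. For the morula allele shift they were -0.32 to 0.31 (Cdkn1a), -0.29 to 0.044 (Plk2), -0.89 to 0.082 (Sesn1), -0.052 to 0.20 (Trp53inp1) and -0.11 to 0.37 (Pmaip1), and for the ExE allele shift -0.10 to 0.89 (Cdkn1a), -0.067 to 0.11 (Ccng1), -0.34 to 0.29 (Plk2), -0.20 to 0.10 (Sesn1), -0.11 to 0.027 (Mdm2), -1.28 to 0.32 (Trp53inp1) and -0.0047 to 0.18 (Bax). An offset from all genes gave -0.00083 for Cdkn1a in morulae and -0.0076 for Ccng1 in ExE.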
